A study of Mus musculus with 29 samples.

Results

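The comparison described here set cortical neuron cultures from mice with a conditioning lesion against cultures from naive mice at the first day in culture. A conditioning lesion is an injury made in the living animal before its neurons are taken for culture, and the title of the series frames the work as a search for such an effect in the adult central nervous system. In sensory neurons of the peripheral nervous system a prior nerve injury is known to raise the capacity for axon growth, with induction of transcription factors such as Atf3, Jun and Sox11. Dissociated brain cultures can also carry microglia, the resident macrophages of the brain, which answer tissue damage through Toll-like receptors and NF-kappaB with chemokines, interleukin 1 and interferon-stimulated genes.

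The Lesion_D1 group (3 libraries) held wild-type C57/BL6 adult primary cortical cultures harvested at day 1 from animals that had been lesioned a day before plating. The Naive_D1 group (3 libraries) held cultures of the same strain, genotype and day from animals without a lesion. Those are 6 of the 29 libraries of the series, whose other groups are lesion and naive cultures at days 2, 3, 5 and 7. The labels give neither the kind or place of the lesion nor the age or sex of the animals, nor whether the 3 libraries in each group represent different animals or cultures. The p-values therefore measure only the spread between libraries of a group, as the authors' fit estimated it, which may be technical. RNA was measured by ultra-low input sequencing, and the deposited table lists, for 5826 of 19085 genes tested, the authors' log2 fold change of lesion over naive with raw and adjusted p-values. It holds the genes with an adjusted p under 0.1 at 1 or more of the 5 days, so a gene that is not in it passed at none. The table holds no values per library. Levels and their spread in each sample, and the depth, are therefore unknown here, and the standard errors given below were derived from the fold changes together with their p-values. "Rose" and "fell" mean an adjusted p under 0.1 at day 1, with a positive value higher in lesion cultures.

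The authors' deposited table held 118 genes that changed at day 1, which is 0.618% of those tested. Of these, 101 fell (0.529%) and 17 rose (0.0891%). With fold changes centred on the median of genes with ranks up to 4771, a shift of 0.20 log2 units, 155 fell and 2 rose. The fallen genes included chemokines, interleukin 1, NF-kappaB pathway genes, interferon-stimulated genes, macrophage genes and immediate early genes. The risen genes included neuronal cytoskeleton genes and a glutamate receptor subunit, and all 17 had long transcripts. The median log2 fold change was -2.40 among the fallen and 1.08 among the risen in the authors' deposited table, a description that the threshold itself shapes, because only large changes of weakly expressed genes can pass it. Of the 118 genes, 47 were on 1 or more of the 33 gene lists described below and 71 were on none, and 116 were protein-coding. A column of ranks in the deposited table, read here as rank of mean expression with 1 the highest, placed all 17 risen genes at ranks from 1 to 4771, the first of 4 equal classes. The fallen genes numbered 49, 26, 19 and 7 in the 4 classes from the highest to the lowest expression. The median implied standard error of the genes in the table was 0.28 in the first class and 1.35 in the last, so folds of weakly expressed genes were far less precise.

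**Figure D1:**
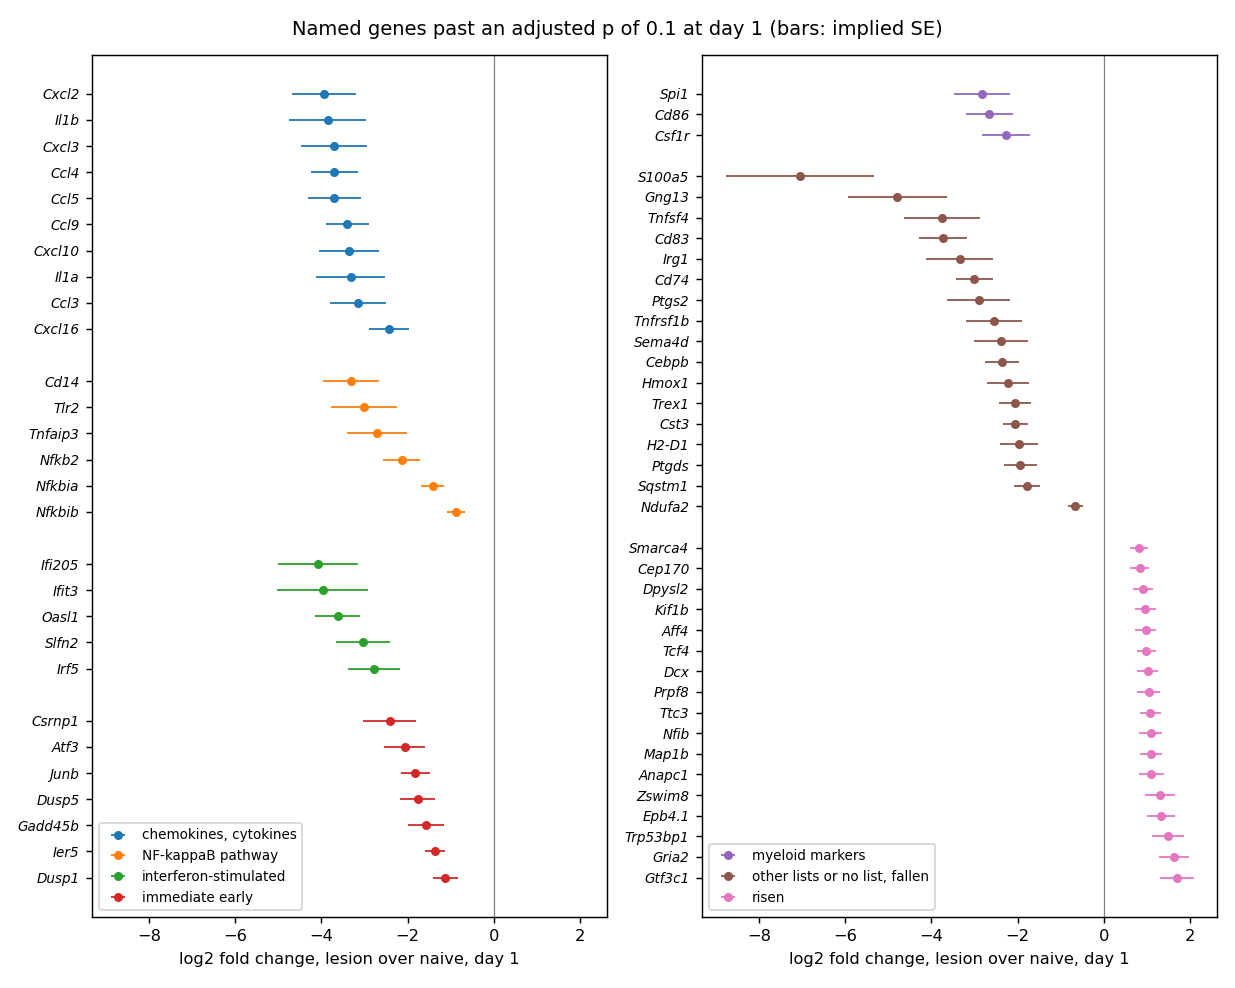
Log2 fold change of lesion over naive at day 1 for genes named in the text that passed an adjusted p of 0.1, in the authors' deposited table, with bars for the implied standard error and colours for gene groups. All chemokine, NF-kappaB, interferon-stimulated, immediate early and myeloid genes drawn lie left of 0, and the 17 risen genes lie between 0.81 and 1.70.

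Chemokines, the secreted ligands that draw leukocytes to a site of injury, gave the densest group. Of 25 chemokine genes 8 fell and none rose, which is 32.0% of the list against 0.529% of all genes tested. Cxcl2, a ligand that recruits neutrophils, had a log2 fold change of -3.94 (implied standard error 0.74) in the authors' deposited table, which is a 15.4-fold lower level in lesion cultures. Its paralog Cxcl3 stood at -3.71 in the authors' deposited table (standard error 0.76). Ccl3, Ccl4 and Ccl5, which attract monocytes and T cells, had log2 fold changes of -3.15, -3.70 and -3.70 (standard errors 0.65, 0.54 and 0.61) in the authors' deposited table. Ccl9, another monocyte attractant, fell as well, with a log2 fold change of -3.40 in the authors' deposited table (implied standard error 0.50, adjusted p = 0.000277 by limma). Cxcl10, an interferon-induced ligand for activated T cells, had -3.36 in the authors' deposited table (standard error 0.70), and the membrane-bound Cxcl16 -2.43 (0.46). Ccl3, Ccl4, Ccl5 and Ccl9 lie within 500 kb of their next neighbour on chromosome 11, and Cxcl2 and Cxcl3 do so on chromosome 5, so they are neighbours as well as relatives. The members short of the threshold with the smallest p were Pf4, with -2.17 in the authors' deposited table (standard error 0.82, adjusted p = 0.316), and Ccl12, with -2.97 (adjusted p = 0.356). The 10 chemokine genes in the table through another day, a subset whose presence does not depend on day 1, had a median log2 fold change of -1.61 at day 1, against 0.01 for all 5755 such genes. That baseline fell with expression. Over the 4 rank classes, from highest to lowest expression, it was 0.20, 0.20, -0.19 and -1.28. The chemokine genes in the table had a median rank of 11316, in the class with -0.19.

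Both genes of interleukin 1, the master cytokine of sterile inflammation, fell. In the authors' deposited table Il1b had a log2 fold change of -3.85 (standard error 0.90) and Il1a one of -3.32 (0.81). They were 2 of 32 cytokine genes (6.25%, against 0.529% of all genes tested), of which none rose. Il1rn, the natural antagonist of the interleukin 1 receptor, had a log2 fold change of -2.44 with an adjusted p of 0.143 in the authors' deposited table. Among 41 cytokine and chemokine receptor genes 2 fell (4.88%, against 0.529%) and none rose. They were Csf1r, the receptor on which microglia depend for survival (-2.26, standard error 0.56), and Tnfrsf1b, a receptor for tumour necrosis factor (-2.55, 0.65), in the authors' deposited table. Tnfsf4, a costimulatory ligand that was on no list, was at -3.75 (0.89) in the authors' deposited table.

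Of 45 genes of pattern recognition and the NF-kappaB pathway, 6 fell (13.3%, against 0.529% of all genes tested) and none rose. At the membrane, Cd14, a co-receptor that hands bacterial lipids and damage signals to Toll-like receptors, had a log2 fold change of -3.32 (standard error 0.64), and Tlr2 one of -3.01 (0.77), in the authors' deposited table. Inside the cell, Nfkb2, the precursor of a subunit of the factor, had -2.14 in the authors' deposited table (standard error 0.43). Genes of inhibitors of the pathway were lower too. Nfkbia, which holds the factor in the cytoplasm, had a log2 fold change of -1.42 in the authors' deposited table (standard error 0.26, adjusted p = 0.00678 by limma). Tnfaip3, a ubiquitin-editing brake on the pathway, was at -2.71 (0.70) and Nfkbib at -0.87 (0.21) in the authors' deposited table. All 14 members of the list in the table through another day had a negative fold change at day 1, with a median of -1.67. The list's genes in the table had a median rank of 9765, in the rank class where the median of all such genes was -0.19.

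Interferon-stimulated genes, which cells switch on when they sense nucleic acids or interferon, gave 5 fallen and no risen of 50. The fallen share was 10%, against 0.529% of all genes tested. Oasl1, an RNA-binding regulator of the interferon response, had a log2 fold change of -3.62 (standard error 0.52, adjusted p = 0.000277 by limma) in the authors' deposited table. Ifi205 was at -4.08 (0.93) and Slfn2 at -3.03 (0.62) in the authors' deposited table. Ifit3 stood at -3.97 (1.05), just inside the threshold with an adjusted p of 0.0995 in the authors' deposited table. Ifit3 has a close copy beside it, Ifit3b, and Ifi205 belongs to a cluster of similar genes, so reads may be split among relatives. Irf5, a transcription factor downstream of Toll-like receptors, had -2.79 in the authors' deposited table (standard error 0.61). Trex1, a DNA exonuclease that limits sensing of DNA in the cytoplasm and was on no list, was at -2.07 (0.37) in the authors' deposited table. The 21 members in the table through another day had a median of -2.01 at day 1, and with ranks limited to 9542 1 of the 5 fallen genes was left. The list's genes in the table had a median rank of 12417, in the rank class where the median of all such genes was -0.19.

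Markers of microglia and macrophages fell with the inflammatory genes: 5 of 51 (9.80%, against 0.529% of all genes tested), with none risen. Besides Csf1r and Cd14 these included Spi1, the gene of the myeloid master regulator PU.1 (log2 fold change -2.82, standard error 0.66) and the costimulatory gene Cd86 (-2.66, 0.55), in the authors' deposited table. Cd83, a maturation marker of antigen-presenting cells, was at -3.73 (0.55) in the authors' deposited table. Only 10 of the 51 markers were in the table. Aif1, Cx3cr1, P2ry12, Trem2, Tyrobp, Itgam and the 3 genes of complement C1q were not, which says only that none of them passed at any day. Tmem119, a marker of resident microglia, had a log2 fold change of -1.98 with a standard error of 1.05 and an adjusted p of 0.510 in the authors' deposited table. Lyz2, a lysozyme of macrophages and granulocytes with rank 270, had one of -0.41 with a standard error of 2.10. In bulk cultures, fewer cells of a type and less RNA per cell cannot be told apart, and the part of a change in myeloid cell number in the fall of inflammatory genes was not tested. Of 26 neutrophil and lymphocyte markers none rose and none fell, which says little where 0.618% of all genes tested changed.

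Genes of antigen presentation were in the same direction. Cd74, the invariant chain of MHC class II, had a log2 fold change of -3.01 (standard error 0.44), and the MHC class I gene H2-D1, which has near-identical relatives that may share its reads, one of -1.97 (0.44), in the authors' deposited table. They were the 2 fallen of 34 genes of complement, phagocytosis and antigen presentation (5.88%, against 0.529% of all genes tested), with none risen. Among 21 genes of prostaglandin, leukotriene and nitric oxide enzymes and related inflammatory enzymes 4 fell (19.05%, against 0.529%) and none rose. Ptgs2, the inducible cyclooxygenase, was at -2.90 (0.73), and Ptgds, a prostaglandin D synthase abundant in brain, at -1.94 (0.38), in the authors' deposited table. Irg1, whose enzyme makes itaconate in activated macrophages and is now named Acod1, was at -3.35 (0.78) in the authors' deposited table. Hmox1, the inducible heme oxygenase, had a log2 fold change of -2.22 (0.50) in the authors' deposited table and ranked 17 among all genes, so a very abundant transcript was 4.66-fold lower in lesion cultures. Hmox1 was also the 1 fallen of 22 antioxidant genes (4.55%, against 0.529%), a count that was 7 after centring. After length centring Hmox1 no longer passed (adjusted p = 0.146), and 2 other genes of the list did, Slc7a11 and Gclm. All 15 antioxidant genes in the table through another day had a negative fold change, with a median of -0.74. Prdx1, a peroxiredoxin of rank 6, was at -1.86 (0.54) with an adjusted p of 0.143 in the authors' deposited table. Sqstm1, the autophagy receptor p62, which was on no list and had rank 13, was at -1.77 (0.30, adjusted p = 0.0026 by limma) in the authors' deposited table. The abundant protease inhibitor Cst3 (cystatin C, rank 42) had the smallest p of all genes tested, with a log2 fold change of -2.05 (0.28) and an adjusted p of 0.000277 in the authors' deposited table.

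Immediate early genes, which neurons and glia transcribe within minutes of a stimulus or of tissue dissociation, gave 7 fallen and no risen of 35. The fallen share was 20%, against 0.529% of all genes tested. The AP-1 subunit gene Junb had a log2 fold change of -1.82 (standard error 0.33) and the stress-induced Ier5 one of -1.36 (0.23) in the authors' deposited table. Atf3, the injury-induced factor of the conditioning response in peripheral neurons, stood at -2.06 (0.47). The phosphatase genes Dusp5 and Dusp1, which switch off MAP kinases, were at -1.77 (0.40) and -1.12 (0.30) in the authors' deposited table. Csrnp1 and Gadd45b were at -2.42 (0.62) and -1.57 (0.41) in the authors' deposited table. The members short of the threshold with the smallest p were Dusp2, at -2.09 (0.62, adjusted p = 0.159 by limma), and Klf2, at -1.43 (0.55, adjusted p = 0.329 by limma). Egr1, a neuronal activity gene, did not pass either, with 0.52 in the authors' deposited table (standard error 0.27, adjusted p = 0.50). Egr2 was at -0.88 (0.46). The median of the list's 18 members in the table through another day was -0.57. With the threshold at 0.05 the count of fallen members was 4, and after length centring it was 2.

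Of 49 regeneration-associated genes 2 fell (4.08%, against 0.529% of all genes tested) and none rose. They were Atf3 and Cebpb, a transcription factor of both injured neurons and macrophages, which had a log2 fold change of -2.36 (standard error 0.39) in the authors' deposited table. After length centring Cebpb still passed, and Atf3, then at -1.69, did not. Sox11, a factor that promotes axon growth, was at 0.90 (0.26) with an adjusted p of 0.141 in the authors' deposited table. Gap43, the growth-associated protein of regenerating axons, was at 0.22 (0.34) with an adjusted p of 0.846. The 25 members in the table through another day had a median of 0.05, against 0.01 for all such genes and 0.20 for those with ranks up to 4771. The list's genes in the table had a median rank of 2471.5.

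Growth cone and cytoskeleton genes held 4 of the 17 risen genes: 4 of 52 rose (7.69%, against 0.0891% of all genes tested) and none fell. Map1b, a microtubule-associated protein of growing axons, had a log2 fold change of 1.10 (standard error 0.25), and Dcx, the doublecortin of migrating young neurons, one of 1.02 (0.25), in the authors' deposited table. Kif1b, a kinesin that carries mitochondria and synaptic vesicle precursors, was at 0.97 (0.24), and Dpysl2, a collapsin response mediator that promotes microtubule assembly, at 0.91 (0.24), in the authors' deposited table. With the threshold at an adjusted p under 0.05 the count was 1, and with centred or length-centred fold changes it was 0. The list's tubulin genes showed little difference, with Tubb3 at 0.15 (0.23) and Tuba1a at 0.28 (0.19) in the authors' deposited table. Other members with long transcripts, Kif1a and Map2, were at 1.21 (0.34) and 0.92 (0.26), with adjusted p-values of 0.130 and 0.133 in the authors' deposited table, while the long Map1a was at 0.46 (0.53).

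The other neuronal lists gave 1 risen gene and 1 fallen one. Gria2, the AMPA receptor subunit that makes the channel impermeable to calcium, rose by 1.63 on the log2 scale (standard error 0.35, adjusted p = 0.0287 by limma) in the authors' deposited table. It was the only one of 38 glutamate and GABA receptor genes that passed (2.63%, against 0.0891% risen among all genes tested). Gabrb2, a GABA-A receptor subunit, was at 1.34 (0.39) with an adjusted p of 0.143 in the authors' deposited table. Sema4d, a semaphorin that collapses growth cones and is also made by immune cells, was at -2.39 (0.63). It was the 1 fallen of 55 axon guidance genes (1.82%, against 0.529% of all genes tested). None of 33 pan-neuronal markers, 49 synaptic vesicle and scaffold genes, 28 glutamatergic markers, 28 GABAergic markers and 40 ion channel genes rose or fell. Only 0.618% of all genes tested changed, so counts of 0 say little about lists of these sizes. The fold changes were nevertheless mostly positive among the members in the table through another day, which are a chosen subset. They were positive in 22 of 24 pan-neuronal markers (median 0.59) and in 23 of 24 synaptic genes (median 0.72). Median ranks of these lists were 1551 and 2662, in the rank class where the median of all such genes was 0.20. Their median transcript lengths were 3787.5 and 4474 nt. Up to rank 9542, 69.5% of all such genes were positive at 3299 to 4396 nt and 80.3% at 4397 to 6064 nt. Against the median of genes of like length, 21 of 24 members of each list were still higher, with medians of 0.51 and 0.54. Snap25, a component of the vesicle fusion machinery, was at 1.18 (0.33) with an adjusted p of 0.127 in the authors' deposited table.

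The remaining 12 risen genes are regulators and large structural proteins on no list. Tcf4 and Nfib are transcription factors of neural development, Smarca4 is the ATPase of a chromatin remodelling complex and Aff4 belongs to a transcription elongation complex. Their log2 fold changes were 0.98 (0.22), 1.09 (0.26), 0.81 (0.21) and 0.97 (0.25) in the authors' deposited table. Gtf3c1, a subunit of an RNA polymerase III factor, had the highest value, 1.70 (0.39), and Prpf8, the core protein of the spliceosome, stood at 1.04 (0.27), in the authors' deposited table. Trp53bp1, a DNA damage response protein, was at 1.48 (0.37), and Anapc1, a subunit of the anaphase-promoting complex, at 1.10 (0.29), in the authors' deposited table. Epb4.1, a protein linking spectrin to the membrane, was at 1.34 (0.33) and Zswim8, a ubiquitin ligase adaptor, at 1.30 (0.34) in the authors' deposited table. Ttc3, a ubiquitin ligase, and Cep170, a centrosomal protein, were at 1.08 (0.25) and 0.83 (0.22) in the authors' deposited table.

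**Figure D2:**
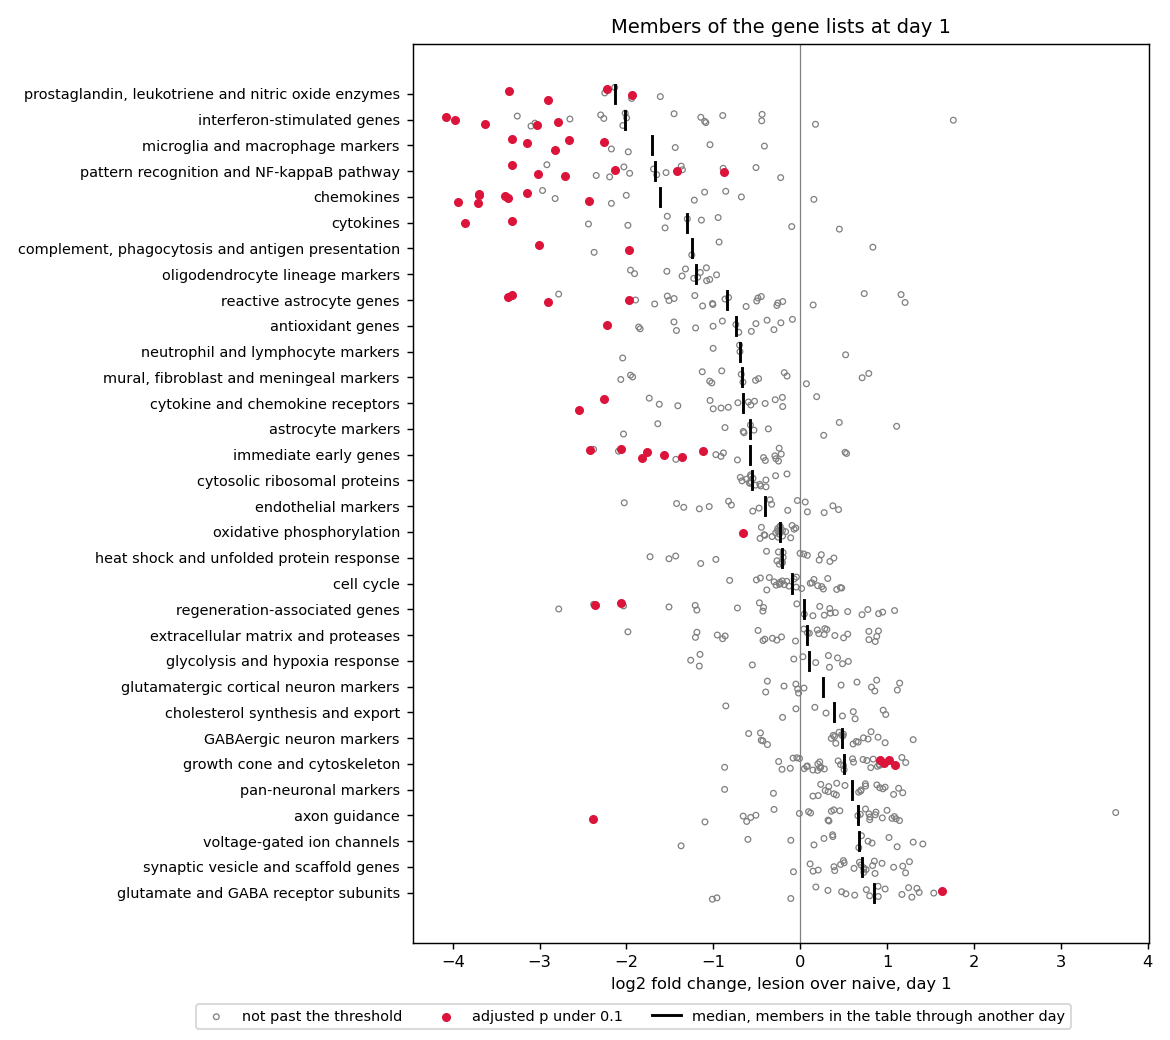
Log2 fold change at day 1 (lesion over naive, authors' deposited table) for members of the 32 lists with 5 or more members in the table through another day, with filled red points for an adjusted p under 0.1 and a black bar for the median of members in the table through another day. Inflammatory lists sit at the top with medians down to -2.14, and neuronal lists at the bottom with medians up to 0.85.

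Markers of other cell types that cortical cultures can hold were mostly negative at day 1 without passing the threshold. All 12 oligodendrocyte lineage markers in the table had a negative fold change, with a median of -1.20, but none fell. Mag, a myelin protein, was at -1.91 (standard error 0.58) with an adjusted p of 0.174 in the authors' deposited table. Medians over members in the table through another day were -0.57 for 11 astrocyte markers and -0.41 for 18 endothelial markers. For 16 mural, fibroblast and meningeal markers the median was -0.67, and again no member of these lists changed. Median ranks were 9757 and 10870 for the oligodendrocyte and mural lists, in the rank class where the median of all such genes was -0.19. The astrocyte and endothelial lists had median ranks of 8875 and 6403, in the class with 0.20. Of 36 reactive astrocyte genes 4 fell (11.1%, against 0.529% of all genes tested) and none rose. The fallen ones were all also on inflammatory lists: Cxcl10, Cd14, Ptgs2 and H2-D1. The 28 cell cycle genes in the table had a median of -0.10 and none changed. No member changed either among 40 extracellular matrix and protease genes, 30 heat shock and unfolded protein response genes, 26 glycolysis and hypoxia genes and 14 ependymal and choroid plexus markers. With 0.618% of all genes tested changed, such counts of 0 are near the share of all genes. At the edge of the measured range, the fallen genes S100a5 and Gng13 are known from olfactory sensory neurons. They had log2 fold changes of -7.06 (1.72) and -4.79 (1.15) in the authors' deposited table, with S100a5 at rank 14891, and at that rank a fold can depend on a handful of reads.

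Transcript length differed between the risen and the fallen genes, though their ranges overlapped. The longest annotated transcript had a median of 8577 nt (range 4520 to 11808) in the 17 risen genes and of 2230 nt (range 431 to 11679) in the 101 fallen genes, against 3436 nt in the 5699 genes of known length in the table through another day. When the genes in the table were cut into 5 equal classes of length, 16 risen genes lay in the longest and 41 fallen genes in the shortest. The longest class also held 6 fallen genes. The same trend ran through the genes in the table through another day, of which 47 were also among the 118 changed at day 1. From the shortest to the longest class, the medians of the authors' log2 fold change at day 1 were -0.35, -0.21, -0.00, 0.25 and 0.46. Spearman's correlation across those genes, which share the same 6 libraries and are not independent, was 0.36 over all ranks and 0.50 among the 3538 with a rank up to 9542. Over all ranks it was -0.12 at day 2, 0.14 at day 3, -0.16 at day 5 and -0.00 at day 7, so no other day had one as high. Cytosolic ribosomal protein genes, whose transcripts are short, had negative values in 16 of 16 members in the table, with a median of -0.55, and oxidative phosphorylation genes in 22 of 22, with a median of -0.24. Of 36 oxidative phosphorylation genes 1 fell (2.78%, against 0.529% of all genes tested), Ndufa2, at -0.66 (0.17) in the authors' deposited table. When each fold change was set against the median of genes of like length, an alternative chosen after seeing the data, 56 of the 101 fallen genes and none of the 17 risen ones stayed past the threshold. The chemokine median was then -1.32, the interferon-stimulated -1.81 and the NF-kappaB one -1.65, while the ribosomal median was -0.17, the oxidative phosphorylation median 0.09 and the synaptic median 0.54. The table holds no value per library, and what lies behind the length trend was not tested.

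**Figure D3:**
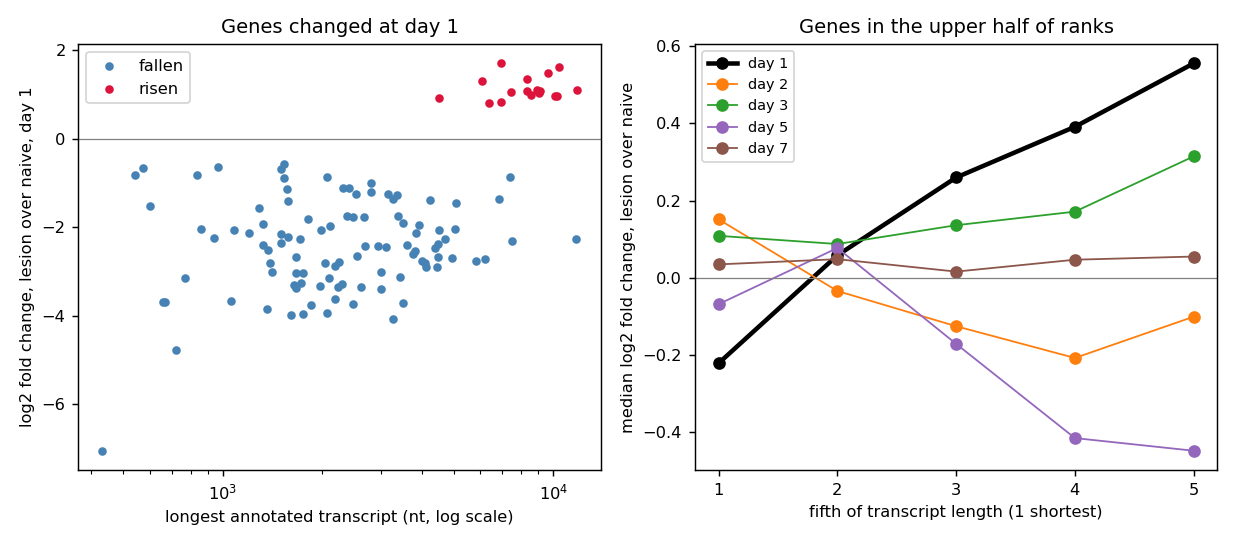
Left, log2 fold change at day 1 of the risen and fallen genes against their longest annotated transcript (log axis, nt); right, median log2 fold change of lesion over naive at each day by class of transcript length (5 equal classes), among genes with a rank up to 9542 that are in the table through another day than the one drawn. The day 1 medians run from -0.22 in the shortest class to 0.56 in the longest.

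Promoter sequence gave a further description of the fallen genes. RefSeq promoters (GRCm38.p6, 250 bases before to 50 after the start) were found for 88 of the 118 changed genes, and letters of known motifs were searched on both strands. An NF-kappaB motif, GGG and TTCC with any 3 bases between them, was present in 13 of 74 fallen genes (17.6%) and in 0 of 14 risen ones, against 6.31% of 27025 genes with a promoter. Those 13 include Cxcl2, Cxcl3, Cxcl10, Ccl9, Tlr2, Nfkb2, Nfkbia and Tnfaip3, whose fold changes are given above. An AP-1 motif, TGANTCA, was in 12 fallen genes (16.2%, against 8.97%), and an interferon response element, GAAA and GAAA with any 2 bases between them, in 6 (8.11%, against 3.99%). A PU.1 motif, GAGGAAGT, was in 3 (4.05%, against 3.69%), and a cyclic AMP response element, TGACGTCA, in 2 fallen genes (2.70%, against 2.03%) and 2 risen ones, Epb4.1 and Gtf3c1. A match is a description of letters in a window, not a bound site. The 250 bases before the start of the genes whose falls are described above show how the matches lie, with the matches to the NF-kappaB motif (Cxcl2, Cxcl10, Nfkbia) or the interferon element (Ifit3) in capitals, on the gene's strand from 5′ to 3′. They are chr5:90903649-90903898 (plus strand) for Cxcl2, chr5:92348890-92349139 (minus strand) for Cxcl10, chr12:55492648-55492897 (minus strand) for Nfkbia and chr19:34583279-34583528 (plus strand) for Ifit3.
Cxcl2: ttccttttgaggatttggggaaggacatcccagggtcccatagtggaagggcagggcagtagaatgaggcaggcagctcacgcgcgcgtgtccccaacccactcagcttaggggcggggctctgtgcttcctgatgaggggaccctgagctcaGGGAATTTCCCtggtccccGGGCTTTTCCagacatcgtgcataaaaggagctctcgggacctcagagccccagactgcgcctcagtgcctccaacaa
Cxcl10: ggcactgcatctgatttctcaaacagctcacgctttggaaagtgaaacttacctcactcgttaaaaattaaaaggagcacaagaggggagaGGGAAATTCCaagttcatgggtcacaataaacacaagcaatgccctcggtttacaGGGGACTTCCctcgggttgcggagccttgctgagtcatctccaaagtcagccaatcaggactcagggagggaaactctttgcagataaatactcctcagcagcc
Nfkbia: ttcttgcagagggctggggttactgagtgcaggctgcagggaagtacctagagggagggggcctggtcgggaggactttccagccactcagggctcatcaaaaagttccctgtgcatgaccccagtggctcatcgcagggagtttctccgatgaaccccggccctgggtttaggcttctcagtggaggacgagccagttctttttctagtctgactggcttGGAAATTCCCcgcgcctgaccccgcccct
Ifit3: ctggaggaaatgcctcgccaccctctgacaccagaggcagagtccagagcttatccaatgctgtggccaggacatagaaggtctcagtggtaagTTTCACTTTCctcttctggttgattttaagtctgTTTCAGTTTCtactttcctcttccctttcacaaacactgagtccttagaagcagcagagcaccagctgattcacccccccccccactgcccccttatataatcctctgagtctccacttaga
The Cxcl2 promoter held 2 overlapping matches that read on opposite strands, the first starting 97 bases before the transcription start, and a further match 78 bases before it. Cxcl10 held matches 159 and 104 bases before the start and Nfkbia 1 match at 29 bases. The Ifit3 matches began 156 and 122 bases before the start, both on the other strand. In the authors' deposited table these 4 genes had log2 fold changes of -3.94, -3.36, -1.42 and -3.97 at day 1.

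The day 1 changes were set beside those of later days, which come from other libraries. Of the 118 genes, 71 passed only at day 1 and 47 also at another day. The fold changes at day 1 were selected for size and are therefore biased away from 0, which exaggerates their distance from other days. At day 2 (5.97% of genes changed, 1.89% risen and 4.08% fallen) and day 3 (1.48%, 0.534% risen and 0.943% fallen), 8 of the 118 genes passed in the same direction as at day 1 on 1 or both days. They were Gria2 among the risen, and Cd74, Ezr, Gadd45b, Ifi205, Ifit3, Oasl1 and Pik3r5 among the fallen, of which Ezr and Pik3r5 were chosen after their values were seen. Oasl1 had log2 fold changes of -5.41 (standard error 1.08) at day 2 and -3.92 (1.18, adjusted p = 0.113) at day 3 in the authors' deposited table. Gria2 was at 0.79 (0.23) at day 2 and 1.46 (0.27) at day 3 in the authors' deposited table. None of the 8 chemokines fallen at day 1 passed in that direction at day 2 or day 3. At day 2 Ccl4 was at -0.49 (0.75) and Ccl5 at -0.73 (0.60) in the authors' deposited table. The difference from day 1, tested with the t statistic described below, passed an adjusted p of 0.1 for these 2 of the 8 (0.0516 and 0.0529). At day 2 it did not for Ccl3, Ccl9, Cxcl2, Cxcl3, Cxcl10 and Cxcl16. Cxcl10 stood at -3.04 (1.21) at day 2, close to its day 1 value. For day 3 the same t statistic passed for Ccl4, Ccl5, Ccl9 and Cxcl16 (adjusted p = 0.0226, 0.0837, 0.0727 and 0.0643). It did not pass at day 3 for Ccl3, Cxcl2, Cxcl3 and Cxcl10.

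At day 5, when 24.0% of all genes changed (12.8% rose and 11.2% fell), some of these genes stood on the other side of 0 and others did not. Of the 17 risen genes 8 were lower and 1 was higher at day 2, and 14 were lower at day 5 and none higher, and of the 101 fallen genes 20 were higher and 3 lower at day 5, with 3 higher and 7 lower at day 2. Cebpb had a log2 fold change of 2.20 and Ptgs2 one of 2.94 at day 5 in the authors' deposited table (standard errors 0.39 and 0.64). The interferon-stimulated Ifit3 was at 4.85 (1.49) and Oasl1 at 4.23 (1.34) at day 5 in the authors' deposited table. Gria2 was at -1.71 (0.30) and Tcf4 at -1.41 (0.24) at day 5 in the authors' deposited table. Among the chemokines Cxcl2 was at -3.92 (1.43, adjusted p = 0.057) at day 5 in the authors' deposited table, close to its day 1 value and again past the threshold. Ccl3 was at -3.38 (1.57) and Ccl4 at -2.43 (1.69) at day 5, neither past the threshold. At day 7 (4.09% changed, 3.11% risen and 0.985% fallen), 2 of the fallen genes were higher and none of the 118 was lower. The difference between the day 1 effect and that of another day was tested for each gene with a t statistic from the implied errors, adjusted by Benjamini and Hochberg over all genes tested and 4 pairs of days. With an adjusted p under 0.1, 59 of the 118 genes differed between day 1 and day 2, against 3.69% of all genes tested. For day 3 the count was 40, against 0.791%, for day 5 it was 69, against 10.8%, and for day 7 it was 41, against 2.36%. In all, 94 of the 118 differed from 1 or more other days, against 13.7% of all genes tested, which count genes outside the table as not differing. Because the 118 were chosen on their day 1 values, these counts are a description.

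**Figure D4:**
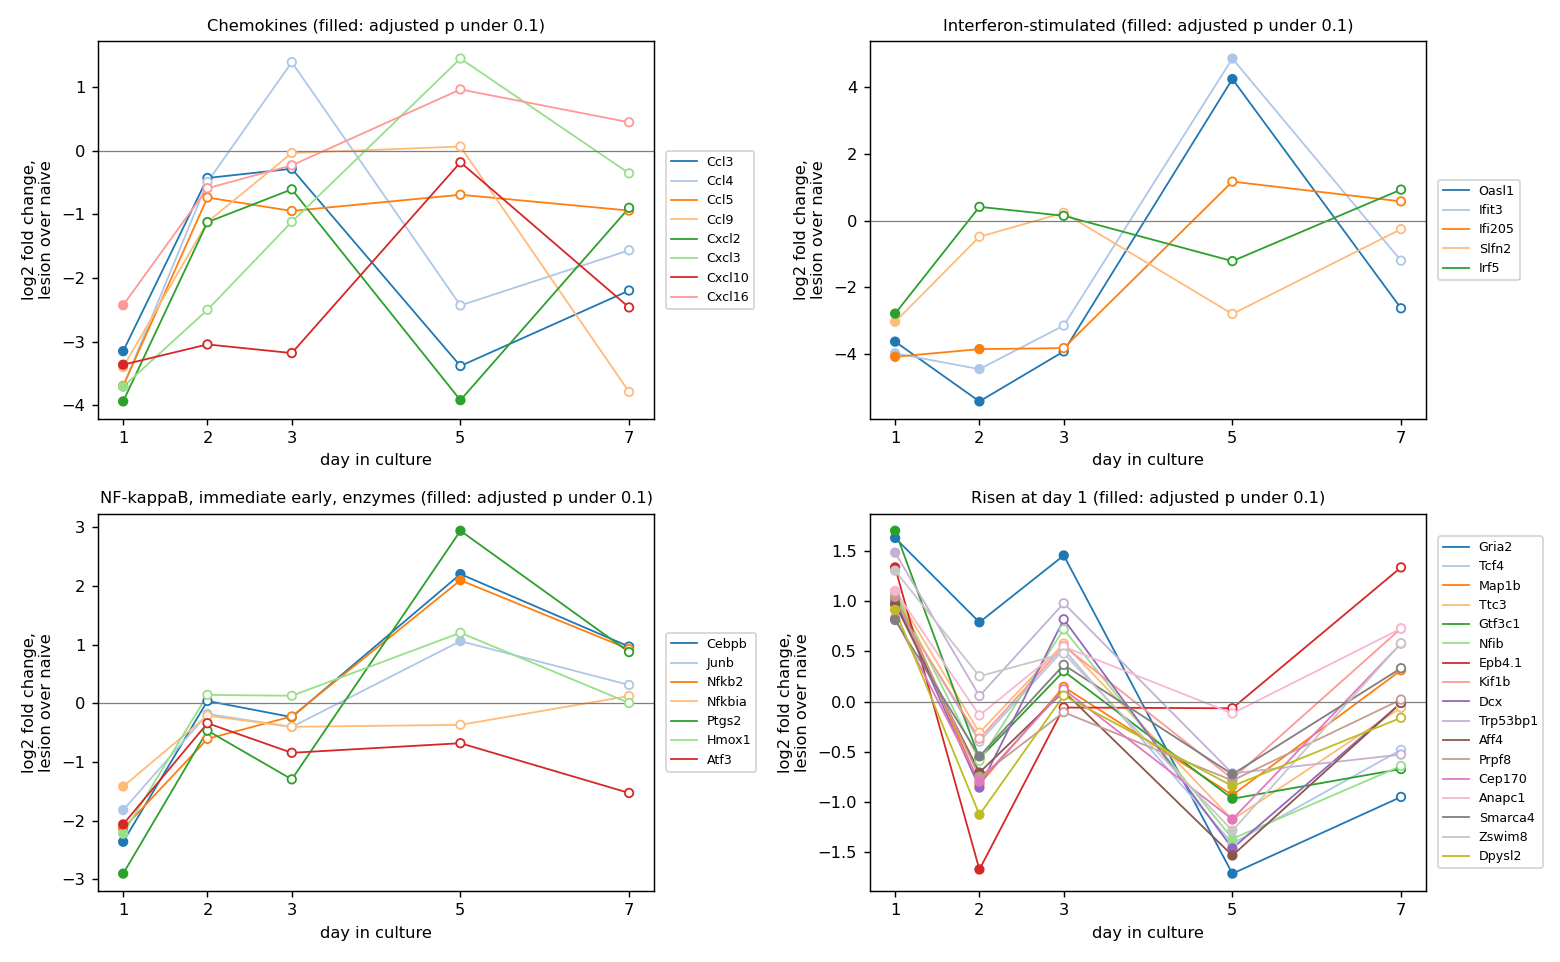
Log2 fold change of lesion over naive in the authors' deposited table at days 1, 2, 3, 5 and 7 for fallen chemokines, fallen interferon-stimulated genes, a choice of other fallen genes (Cebpb, Junb, Nfkb2, Nfkbia, Ptgs2, Hmox1 and Atf3) and the 17 risen genes, with filled points for an adjusted p under 0.1. The fallen genes drawn lie at or below -1.42 at day 1, and all 17 risen genes lie below 0 at day 5.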

How the data were processed

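The libraries were made with an ultra-low input kit and sequenced on a HiSeq4000, per the labels' protocols, and reads were aligned with STAR to mm10, per the submitters' processing notes. How reads were counted, filtered and scaled is not given in the sources used here. The deposited table holds p-values, adjusted p-values and log2 fold changes that the authors computed with voom and limma, per the file headers and file name, and a rank score with no explanation in the deposited file. Rebuilding Benjamini-Hochberg adjustment for 19085 tests returned the deposited adjusted p-values to within a relative deviation of 9.15e-13. Depth and per-library precision are unknown here, because no counts per library were used.

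No gene was refitted. Standard errors were back-calculated from fold change and p-value with 34 degrees of freedom, estimated from the table; the day comparison was repeated with 19. Genes outside the table had a p of 1 in it, so its counts are lower bounds. The estimate of the degrees of freedom and the day comparison were run on simulated data. That simulation had large changes at day 1 only and no selection of genes. It therefore did not test them on a table cut to genes that passed. Lists held 1064 genes, 556 of them in the table, 1 matched by synonym. Lengths came from GENCODE vM21 for 5770 rows. Python 3.11.15, pandas 2.3.3 and scipy 1.17.1 were used. Named genes were every changed list member, every risen gene, and the 12 fallen genes of smallest adjusted p and the 12 of lowest fold change other than predicted genes, and up to 4 unchanged members per list with the smallest p; a few of these genes are counted but not reported here, and further unchanged members were chosen after their values were seen. The comparison and the lists were chosen with earlier results of these data known. Alternatives were other thresholds, a fold minimum, ranks up to 9542, other adjustments, centring and, added after seeing the data, length centring and ranks above 9542.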

Additional observations from a re-analysis of the deposited data

Results flagged for a closer look

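For the 28 genes given here the effect at day 1 differed from that of another day with an adjusted p under 0.01, by the t statistic from implied errors. Each value below is the log2 fold change at day 1 minus that at the day of smallest p, computed from the authors' deposited table, in log2 units. Because the day 1 values were selected for passing a threshold, these differences are biased away from 0.

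Among the risen genes the differences from day 5 were Tcf4 2.40, Gria2 3.35, Aff4 2.51, Ttc3 2.26, Cep170 2.01, Nfib 2.45, Zswim8 2.59, Kif1b 1.74 and Gtf3c1 2.67. Their differences from day 2 were Dpysl2 2.04, Map1b 1.92, Dcx 1.88, Epb4.1 3.01, Prpf8 1.79 and Smarca4 1.36. Each of these genes was higher in lesion cultures at day 1 and had a negative log2 fold change at the other day in the authors' deposited table.

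Among the fallen genes the differences from day 5 were Cebpb -4.56, Cst3 -2.61, Junb -2.88, Ptgs2 -5.84, Oasl1 -7.86, Nfkb2 -4.23, Ifit3 -8.82, Hmox1 -3.42, Sqstm1 -1.91 and Dusp5 -2.40. Their differences from day 2 were Ndufa2 -1.42, Ier5 -1.58 and Cd14 -4.19.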

How the results depend on the processing

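The 118 changed genes became 59 (5 risen, 54 fallen) with an adjusted p under 0.05 and 17 (0 risen, 17 fallen) with one under 0.01. The Benjamini-Yekutieli adjustment gave 17 (0 risen, 17 fallen) and the Bonferroni adjustment 14 (0 risen, 14 fallen). A minimum absolute log2 fold change of 1 left 102, with 11 risen. Ranks up to 9542 held 92 of the genes, and ranks above it 26 (0 risen, 26 fallen). Centring on the genes with ranks up to 4771, a shift of 0.20 log2 units, gave 157 with 2 risen and 155 fallen, so the balance of risen and fallen genes depends on scaling. Centring on genes of like length gave 63, with 1 risen and 62 fallen; the 1 risen gene, Atat1, was not among the 17. Growth cone genes kept no risen member under either centring. At 0.05 the NF-kappaB list had 3 fallen genes, the cytokines 1 and the receptors 0. No named gene changed direction under either centring. Under length centring the medians of some lists changed sign. They were oxidative phosphorylation (-0.24 to 0.09), extracellular matrix and proteases (0.08 to -0.27) and glycolysis and hypoxia response (0.10 to -0.06). Of the 66 named genes, 38 passed at 0.05, 51 after centring and 32 after length centring. With 19 degrees of freedom, 90 of the 118 differed from another day, against 94. Leaving out replicates was not run, since no values per library were used. No paired analysis was possible because the table used here holds comparisons only. Depth limits are unknown for the same reason.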

Other observations

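A few fallen genes on no list act in heme and iron handling. They were picked from the fallen genes after their values were seen, so their shared direction is set by that choice, and other genes of this kind were not counted. Blvrb, a biliverdin reductase that acts on the products of heme breakdown, had a log2 fold change of -2.15 in the authors' deposited table at day 1 (implied standard error 0.45). Slc40a1, the iron exporter ferroportin, was at -1.95 (0.48) and Alas1, the first enzyme of heme synthesis, at -1.75 (0.34) in the authors' deposited table. Spic, a transcription factor that heme induces in macrophages, was at -3.29 (0.80) in the authors' deposited table.

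Genes of cholesterol synthesis leaned the other way without passing the threshold. None of 23 genes on the list rose or fell, against 0.618% of all genes tested. The 10 in the table through another day had a median of 0.39, and of 0.27 after length centring. Their median rank was 1050.5, in the rank class where the median of all such genes was 0.20.

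Gp49a and Lilrb4, near-identical receptor genes next to each other on chromosome 10, were at -2.77 and -2.62 in the authors' deposited table, and reads may be shared between them.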
